A study of Danio rerio with 4 samples.

Results

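The splicing and hnRNP genes are the genes of the count table whose zebrafish symbol, ignoring case, begins with srsf, snrp, hnrnp, hnrp, sf3a, sf3b, u2af or prpf. They number 76 of 31953 genes, of which 26121 had a symbol. By prefix they fall into 17 SR proteins, 12 Sm and snRNP proteins, 9 SF3 subunits, 3 U2AF subunits, 11 PRPF proteins and 24 hnRNP proteins. The prefix does not catch every spliceosome gene: symbols that begin with snrnp, such as SNRNP70, lie outside it and were read from a wider list.

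The libraries came from total RNA of pooled zebrafish larvae at 120 h after fertilisation, depleted of ribosomal RNA. The mutant group (n = 2 libraries) carried uhrf1(hi272), an insertion allele of the gene for Uhrf1, a chromatin protein that directs maintenance DNA methylation. The sibling group (n = 2) held larvae of normal appearance, so its genotype at uhrf1 was not determined larva by larva. The labels give whole larvae in pools of 10 to 20 from 2 clutches (10 in the extraction protocol), and do not tie a library to a clutch, so every p-value covers no more than library-to-library spread, which may be technical.

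Splicing removes introns from pre-mRNA. Small nuclear ribonucleoproteins (snRNPs), most of which hold an RNA with a ring of Sm proteins, assemble on the intron. The U1 particle takes the 5′ splice site, and U2AF marks the tract before the 3′ splice site. The U2 particle with its SF3 subunits takes the branch point. PRPF proteins belong mostly to the particles that then join and rearrange this assembly. SR proteins and hnRNP proteins bind the transcript itself and shift which sites are used, SR proteins often towards inclusion of an exon and hnRNP proteins often towards its skipping. Mutations in core components are known to impair development of the zebrafish larva.

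The libraries held 571978 and 564941 gene reads in mutants and 613370 and 812167 in siblings. The reads of UHRF1 were 7 and 9 in mutants against 2 and 17 in siblings, so at this depth its reads do not check the labels. The deposited columns of the sibling libraries are headed ABNYU and those of the mutants by the allele number, and these libraries labelled sibling stood apart from a whole larva by their markers. All 7 neuron markers were at 0 in sibling replicate 1 and 6 of 7 in sibling replicate 2, and of 12 lens markers 11 and 12 were at 0. Muscle markers took 0.0333% and 0.0143% of gene reads there, against 6.60% and 5.97% in mutants. Hepatocyte markers took 25.1% and 19.6% in siblings and 0.687% and 0.398% in mutants. Exocrine pancreas markers took 17.4% in sibling replicate 2 and 0.0652% in sibling replicate 1. Tissue make-up and genotype therefore cannot be told apart, and fewer cells of a type cannot be told apart from less RNA per cell.

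As a group, these genes took a larger share of gene reads in mutants than in siblings. They held 2094 of the gene reads (0.366%, Wilson 95% interval 0.351% to 0.382%) in mutant replicate 1 and 2111 (0.374%, 0.358% to 0.390%) in mutant replicate 2. In sibling replicate 1 they held 699 reads (0.114%, 0.106% to 0.123%) and in sibling replicate 2 829 reads (0.102%, 0.0954% to 0.109%). Both mutant shares lay above both sibling shares, and the intervals, which cover counting error only, did not meet. An exact permutation test of 2 against 2 libraries cannot give a two-sided p below 0.33. With the hepatocyte and pancreas markers taken out of the gene reads, the shares were 0.369% and 0.375% in mutants and 0.152% and 0.162% in siblings. Ribosomal protein genes, given for scale, took the opposite course, with 3.53% and 3.43% in mutants and 6.79% and 6.96% in siblings. The wider list rose likewise, with 0.733% and 0.743% in mutants and 0.262% and 0.221% in siblings. A larger share was common over the table: with libraries scaled to total counts, the median log2 ratio of mutant to sibling was 2.12 over 8133 genes. The wider list rose likewise, with 0.733% and 0.743% in mutants and 0.262% and 0.221% in siblings. A larger share was common over the table: with libraries scaled to total counts, the median log2 ratio of mutant to sibling was 2.12 over 8133 genes.

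A share of all reads depends on what else fills the library, so single genes were tested after TMM scaling, which sets the trimmed mean of the log fold changes to 0. Levels are in CPM, the read count of a gene relative to the TMM-scaled size of its library. A fold change is the log2 ratio of mutant to sibling ± standard error, from the quasi-likelihood test of edgeR across all genes, and a call is a Benjamini-Hochberg adjusted p under 0.05. Of the 76 genes, 51 had enough reads to be tested. Of these 11 were higher and 4 lower in mutants, 21.6% and 7.84%, against 35.2% higher and 25.9% lower among all 8133 tested genes. Their median log2 fold change was 0.40, and that of all tested genes was 0.48. Scaling to total counts gave 44 higher and 2 lower (all genes 67.6% and 12.6%), and the medians were 2.03 and 2.12. Scaling to ribosomal protein reads gave 49 higher and 2 lower (all genes 78.9% and 8.09%), with medians of 3.01 and 3.09. The level of the group as a whole thus moved with the scaling, beside the median of all genes.

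The 11 genes called higher with TMM were also called higher with both other scalings, as were all 2861 genes of the whole table called higher with TMM. Both other scalings shift nearly every fold change upwards, so this agreement does not set the 11 apart. Of the 4 called lower, 2 were lower with all 3 scalings: hnrnpc (ENSDARG00000053810) and the SNRPD3 gene ENSDARG00000013800. Among all tested genes, 8.09% were lower with all 3, the same share as with ribosomal protein scaling alone. Without mutant replicate 1 or 2, where the fit takes its spread from the sibling pair, 0 of the 11 passed. The same fits called 4.19% and 3.65% of all tested genes higher, so the loss was general. Without sibling replicate 1, 12 genes were higher and 7 lower (all genes 34.0% and 26.8%), and without sibling replicate 2, 18 and 5 (all genes 34.3% and 26.7%). All 11 rises passed the count filter through their mutant reads alone, SNRPD3 through its sibling reads alone, and hnrnpc through its sibling reads with 1 mutant library also at the cutoff, so these counts are a description of the members that passed.

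**Figure D1:**
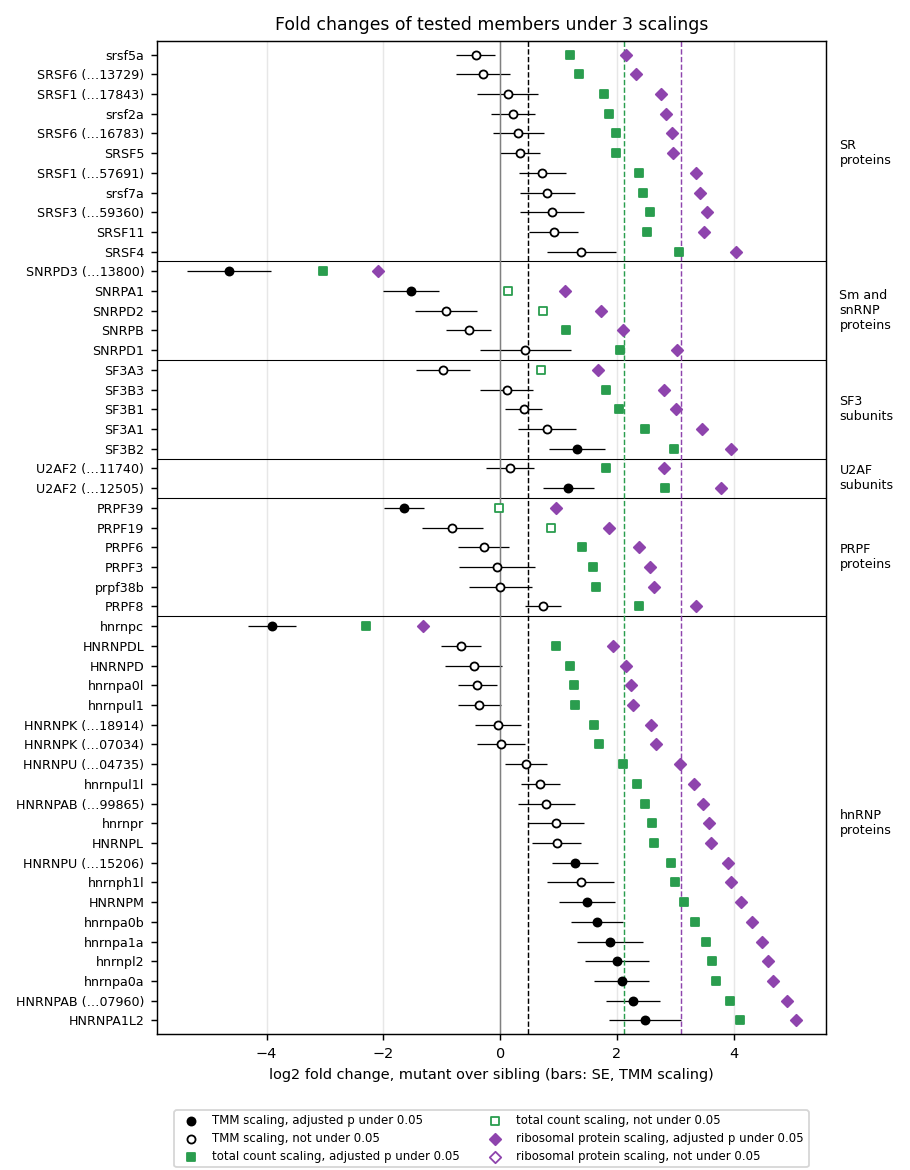
Log2 fold change, mutant over sibling, of the tested splicing and hnRNP genes (all but 1 of the 51; rows, grouped by class) under 3 scalings; filled symbols passed an adjusted p of 0.05, bars are the standard error with TMM scaling, and dashed lines are the medians of all 8133 tested genes (0.48, 2.12 and 3.09). Changing the scaling shifts nearly every gene by the same step, and hnrnpc and SNRPD3 (ENSDARG00000013800) stay below 0 throughout.

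Of the 11 rises 8 were in hnRNP genes, the class with the most tested members, as was the fall with the lowest adjusted p. The gene hnrnpc encodes hnRNP C, which in human cells coats nascent transcripts and binds runs of uridine. Its reads numbered 7 and 14 in the mutant libraries but 72 and 55 in the sibling libraries, or 11.3 ± 5.26 against 173 ± 30.3 CPM (mean ± SD, n = 2). Both mutant libraries were low and both sibling libraries high, with a wide gap between the groups. Its log2 fold change was -3.91 ± 0.41 (edgeR adjusted p = 4.37e-06). With total-count scaling it was -2.30 (edgeR adjusted p = 0.0014), with ribosomal protein scaling -1.32 (edgeR adjusted p = 0.0239). Leaving out any 1 library, the pancreas-rich sibling replicate 2 among them, kept it between -4.47 and -3.51. The part of tissue make-up in the fall was not tested.

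Seen within the splicing and hnRNP reads alone, which needs no scaling, hnrnpc went from 10.3% (Wilson 95% interval 8.26% to 12.8%) and 6.63% (5.13% to 8.54%) of them in siblings to 0.334% (0.162% to 0.688%) and 0.663% (0.395% to 1.11%) in mutants. The other 23 hnRNP genes together took 28.8% (25.5% to 32.2%) and 29.4% (26.4% to 32.6%) in siblings and 40.7% (38.6% to 42.9%) and 41.4% (39.3% to 43.5%) in mutants. Counted together, all 24 took 39.1% and 36.1% in siblings and 41.1% and 42.0% in mutants. The interval of sibling replicate 1 (35.5% to 42.7%) met those of both mutants, and that of sibling replicate 2 (32.9% to 39.4%) met only that of mutant replicate 1 (39.0% to 43.2%). The whole class thus differed less than its parts, hnrnpc and the rest, a split made after the values had been seen. These shares have the same total, so a lower share of hnrnpc by itself raises the share of the other genes.

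**Figure D2:**
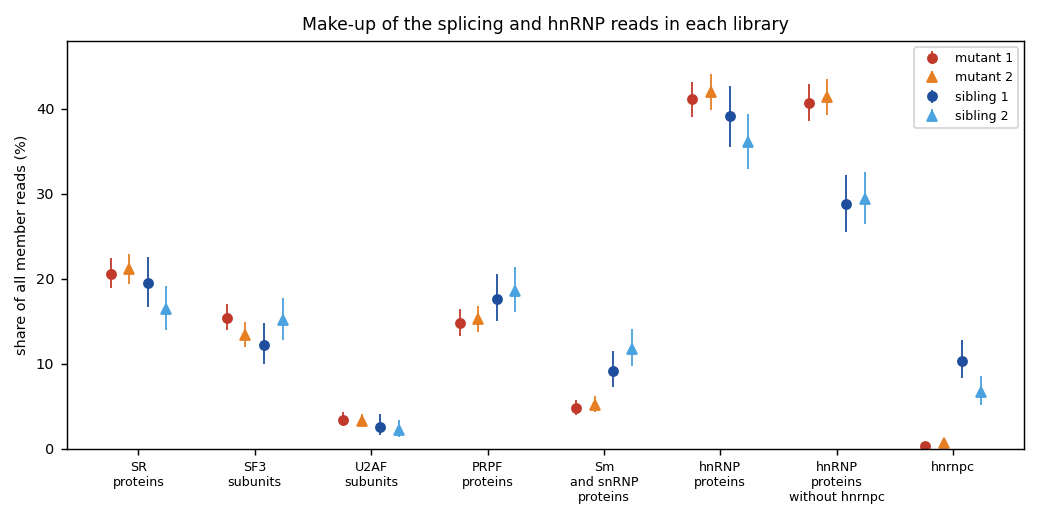
Share of all splicing and hnRNP reads (y axis, %) held by each class in each of the 4 libraries; bars are Wilson 95% intervals for counting error. The hnRNP class without hnrnpc lies near 41% in mutants and 29% in siblings, hnrnpc is under 1% in mutants, and the Sm and snRNP class lies near 5% in mutants and 9% to 12% in siblings.

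Of 21 hnRNP genes tested, 8 rose (38.1%) and 1 fell (4.76%), against 35.2% and 25.9% of all tested genes, so the share of rises was near that of all genes. The median log2 fold change was 0.95, against 0.48 for all tested genes. With total-count scaling the medians were 2.6 and 2.12, and with ribosomal protein scaling 3.57 and 3.09. Genes whose symbol begins with hnrnpa made up 5 of the 8 higher (of 7 tested and 8 present). This grouping goes by name only and was chosen after the values had been seen. They were hnrnpa0a, hnrnpa0b, hnrnpa1a, HNRNPA1L2 and the HNRNPAB gene ENSDARG00000007960. HNRNPA1L2 is the symbol that the annotation gives to ENSDARG00000036675 after a human gene.

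The HNRNPAB gene ENSDARG00000007960 gave 71 and 77 mutant reads against 3 and 9 sibling reads (79.8 ± 3.98 and 16.5 ± 11.8 CPM, mean ± SD, n = 2). Its mutant libraries were close together and above both siblings, and it rose by 2.27 ± 0.46 (edgeR adjusted p = 0.000936). HNRNPA1L2 had 25 and 33 reads against 1 and 3, again without overlap, and rose by 2.48 ± 0.62 (edgeR adjusted p = 0.00387), the largest fitted rise among the 51. The gene hnrnpa0a had 46 and 62 reads against 7 and 3 and rose by 2.08 ± 0.47 (edgeR adjusted p = 0.00185). In all 3 the sibling counts were low, so the size of the rise is known less well than its direction. Without mutant replicate 1 or 2 their edgeR adjusted p lay between 0.0782 and 0.141.

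The other called rises in this class were smaller. The gene hnrnpa0b, with 57 and 56 reads against 4 and 10, rose by 1.66 ± 0.44, and hnrnpa1a, with 33 and 24 against 2 and 4, rose by 1.88 ± 0.57. The gene hnrnpl2, a relative of the CA-repeat binding protein hnRNP L, had 34 and 28 reads against 4 and 2 and rose by 2.00 ± 0.55. HNRNPM rose by 1.49 ± 0.48, and the HNRNPU gene ENSDARG00000015206, whose protein is known as a nuclear scaffold factor, by 1.28 ± 0.40 (edgeR adjusted p between 0.00532 and 0.0152 for these 5). For HNRNPM the fit without sibling replicate 1 no longer passed (edgeR adjusted p = 0.0752). With DESeq2 hnrnpa1a, hnrnpl2, HNRNPM and this HNRNPU gene no longer passed (DESeq2 adjusted p between 0.0603 and 0.116), and without the count filter hnrnpa0b, hnrnpa1a and HNRNPM did not (edgeR adjusted p between 0.0535 and 0.0622). In each of the 5, both mutant libraries lay above both sibling libraries in CPM, but these genes were picked as called higher. The same held for 25 of the 51 tested splicing and hnRNP genes, and the reverse for 11. No share over all tested genes stands beside these counts.

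The remaining 12 tested hnRNP genes did not pass, with fold changes from -0.67 (HNRNPDL) to 1.38 (hnrnph1l, edgeR adjusted p = 0.0503). The gene hnrnpa0l gave 76 and 65 mutant reads against 34 and 39 sibling reads (76.1 ± 8.97 and 99.8 ± 11.1 CPM), a fold change of -0.39 ± 0.33 (edgeR adjusted p = 0.317) that turned to 1.26 with total-count and 2.24 with ribosomal protein scaling. For hnrnpul1l, with 73 and 83 against 19 and 19 reads, the fold change was 0.69 ± 0.34 (edgeR adjusted p = 0.0929). Both HNRNPK genes lay at -0.04 and 0.02, the nearest to 0 in the class. HNRNPD, hnrnpul1, hnrnpr, HNRNPL, the HNRNPU gene ENSDARG00000004735 and the HNRNPAB gene ENSDARG00000099865 complete the 12. Too few reads were present to test hnrnpa3, hnrnph1 and hnrnph3, and hnrnpa3, with 6 and 2 reads in mutants, was at 0 in both siblings.

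The Sm and snRNP proteins, the structural core of the particles, took a smaller part of the splicing reads in mutants, though not of all gene reads. Their 12 genes held 4.78% (Wilson 95% interval 3.94% to 5.77%) and 5.16% (4.30% to 6.19%) of these reads in mutants. In siblings they held 9.16% (7.24% to 11.5%) and 11.7% (9.69% to 14.1%). Every mutant interval lay below every sibling interval. Of all gene reads, the class held 0.0175% and 0.0193% in mutants and 0.0104% and 0.0119% in siblings. Here the intervals of mutant replicate 1 (0.0144% to 0.0213%) and sibling replicate 2 (0.00979% to 0.0146%) met. With the hepatocyte and pancreas markers taken out, the groups overlapped (0.0176% and 0.0194% in mutants, 0.0139% and 0.0189% in siblings). Shares within the splicing reads have a fixed total, so more reads of the other classes by themselves lower the share of this class. Without the SNRPD3 gene ENSDARG00000013800, a choice made after its values had been seen, the shares were 4.63% and 5.16% in mutants and 7.44% and 9.17% in siblings. Then the intervals of mutant replicate 2 (4.30% to 6.19%) and sibling replicate 1 (5.72% to 9.63%) met.

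SNRPD3 encodes an Sm ring protein, and the annotation gives this symbol to a pair of genes. ENSDARG00000013800 was read 3 and 0 times in mutants but 12 and 21 times in siblings. All its mutant counts lay below its sibling counts, and over the pooled libraries its CPM was 27.9-fold lower in mutants, with an exact 95% counting interval of 8.74 to 142. It fell in the fit (log2 fold change -4.64 ± 0.72, edgeR adjusted p = 0.000116), also with total-count (-3.04) and ribosomal protein scaling (-2.09, edgeR adjusted p = 0.0137). Without mutant replicate 2 the edgeR adjusted p was 0.0582, and without the count filter it was 0.0523. Its namesake ENSDARG00000076283, with 6 and 4 mutant and 7 and 1 sibling reads, was not tested.

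SNRPA1, a protein of the U2 particle, gave 10 and 10 mutant reads against 8 and 15 sibling reads (10.8 ± 0.0814 and 31.5 ± 14.0 CPM). It fell with TMM (-1.53 ± 0.48, edgeR adjusted p = 0.015) but not with total counts (0.13), and it rose when scaled to ribosomal protein reads (1.11, edgeR adjusted p = 0.0448). Its call was lost without either mutant library or without sibling replicate 2 (edgeR adjusted p of 0.154 to 0.191), without the count filter (0.144) and with DESeq2 (DESeq2 adjusted p = 0.13). SNRPB, of the Sm ring, had 24 and 28 reads against 11 and 19, a fold change of -0.54 ± 0.39 (edgeR adjusted p = 0.247) that was 1.12 with total-count and 2.11 with ribosomal protein scaling. SNRPD2 (-0.92 ± 0.53) and SNRPD1 (0.43 ± 0.78) did not pass either. Of the 5 tested genes edgeR called 0 higher and 2 lower, and DESeq2 0 higher and 1 lower. In the edgeR fit 2 had an unadjusted p under 0.05, both lower, as had 5255 of all 8133 tested genes in either direction. Of all tested genes edgeR called 35.2% higher and 25.9% lower, and DESeq2 21.0% and 20.4%. SNRPA, SNRPB2, SNRPC, SNRPE, SNRPF and SNRPG had at most 13 reads in any library and were not tested.

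No SR protein gene was called in either direction among 11 tested, with edgeR or with DESeq2. Of all tested genes edgeR called 35.2% higher and 25.9% lower, and DESeq2 21.0% and 20.4%. In the edgeR fit 2 of the 11 had an unadjusted p under 0.05, as had 5255 of all 8133 tested genes. Fold changes of the 11 ran from -0.42 to 1.39 with a median of 0.34. With total-count or ribosomal protein scaling all 11 were called higher, where 67.6% and 78.9% of all tested genes were. SRSF5 gave 54 and 55 mutant reads against 17 and 17 sibling reads (58.8 ± 0.32 and 46.4 ± 0.692 CPM, fold change 0.34 ± 0.34, edgeR adjusted p = 0.405). Its relative srsf5a had 66 and 62 reads against 41 and 27, with the mutant CPM below both siblings (-0.42 ± 0.34, edgeR adjusted p = 0.295), and was at 1.19 and 2.16 with the other scalings. For SRSF11, with 66 and 87 against 23 and 9 reads, the fold change was 0.92 ± 0.42 (edgeR adjusted p = 0.0722). Its sibling libraries differed from each other by more than its mutant libraries did.

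SRSF4, with 28 and 39 reads against 1 and 9, came nearest to a call (1.39 ± 0.59, edgeR adjusted p = 0.0581). The 2 SRSF1 genes, the 2 SRSF6 genes, srsf2a, SRSF3 (ENSDARG00000059360) and srsf7a lay between -0.29 and 0.89. SRSF9, SRSF7, srsf10b, srsf2b and SRSF3 (ENSDARG00000025397) had too few reads to test, and srsf3a had 0 in all 4 libraries. Together the SR genes took 20.6% and 21.1% of the splicing reads in mutants and 19.5% and 16.4% in siblings.

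Among the SF3 subunits, which hold the U2 particle on the branch point, 1 of 5 tested genes rose (20.0%) and 0 fell. Of all tested genes 35.2% were higher and 25.9% lower. The SF3 gene that rose was SF3B2, with 27 and 37 mutant reads against 4 and 6 sibling reads (1.32 ± 0.48, edgeR adjusted p = 0.0298). Its mutant libraries lay above its siblings, and the call was lost without either mutant library and without sibling replicate 1 (edgeR adjusted p of 0.0909 to 0.232), without the count filter (0.0664) and with DESeq2 (DESeq2 adjusted p = 0.169). SF3B1, the subunit that contacts the branch point, had 160 and 131 reads against 47 and 40 and did not pass (0.40 ± 0.32, edgeR adjusted p = 0.287). SF3A1 had 39 and 32 reads against 3 and 13 (0.80 ± 0.50, edgeR adjusted p = 0.183). SF3B3 had 47 and 49 reads against 8 and 27, a fold change of 0.11 ± 0.45 that was -0.51 without sibling replicate 1. SF3A3 was at -0.98 ± 0.46 (edgeR adjusted p = 0.0824), and SF3A2, SF3B4, SF3B5 and SF3B6 were not tested.

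U2AF2 encodes the large U2AF subunit, which binds the pyrimidine tract, and has a pair of genes here. ENSDARG00000012505 gave 34 and 35 mutant reads against 6 and 6 sibling reads (37.2 ± 0.482 and 16.4 ± 0.244 CPM). Replicates agreed closely in both groups, and the gene rose by 1.17 ± 0.43 (edgeR adjusted p = 0.0296), though the edgeR adjusted p was 0.157 and 0.165 without mutant replicate 1 and 2 and 0.0502 without sibling replicate 2, and the DESeq2 adjusted p was 0.189. ENSDARG00000011740 had 29 and 25 reads against 8 and 11 and did not pass (0.17 ± 0.41, edgeR adjusted p = 0.746). U2AF1, the small subunit that reads the end of the intron, had 8 and 8 against 4 and 1 reads and was not tested.

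Of 7 tested PRPF genes 1 rose and 1 fell (14.3% each), against 35.2% higher and 25.9% lower among all tested genes. The gene that fell was PRPF39, which encodes a protein associated with the U1 particle. It had 40 and 30 reads against 47 and 40 (37.8 ± 7.92 and 119 ± 11.8 CPM), and its groups did not overlap on this scale. It fell with TMM by 1.65 ± 0.34 on the log2 scale (edgeR adjusted p = 0.00112) but not with total counts (-0.02), and it rose when scaled to ribosomal protein reads (0.96, edgeR adjusted p = 0.0376). Without mutant replicate 1 or 2, the edgeR adjusted p was 0.0615 and 0.0925.

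PRPF8, the scaffold of the catalytic centre, gave 152 and 151 mutant reads against 36 and 36 sibling reads (163 ± 2.00 and 98.4 ± 1.46 CPM). Although its libraries agreed within each group, the fold change of 0.73 ± 0.31 did not pass (edgeR adjusted p = 0.0579). Leaving out any 1 library kept the fold change between 0.72 and 0.74. The gene passed without sibling replicate 1 or 2, where the spread comes from the mutant pair alone, but not without mutant replicate 1 or 2. PRPF19, a ubiquitin ligase that activates the spliceosome, had 16 and 24 reads against 6 and 22 (-0.82 ± 0.52, edgeR adjusted p = 0.19) and its sign turned with total-count scaling (0.87), with ribosomal protein scaling (1.86) and without sibling replicate 2 (0.39). PRPF3, PRPF6 and prpf38b lay between -0.28 and 0.00. PRPF4, PRPF18, PRPF31 and PRPF38A were not tested.

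**Figure D3:**
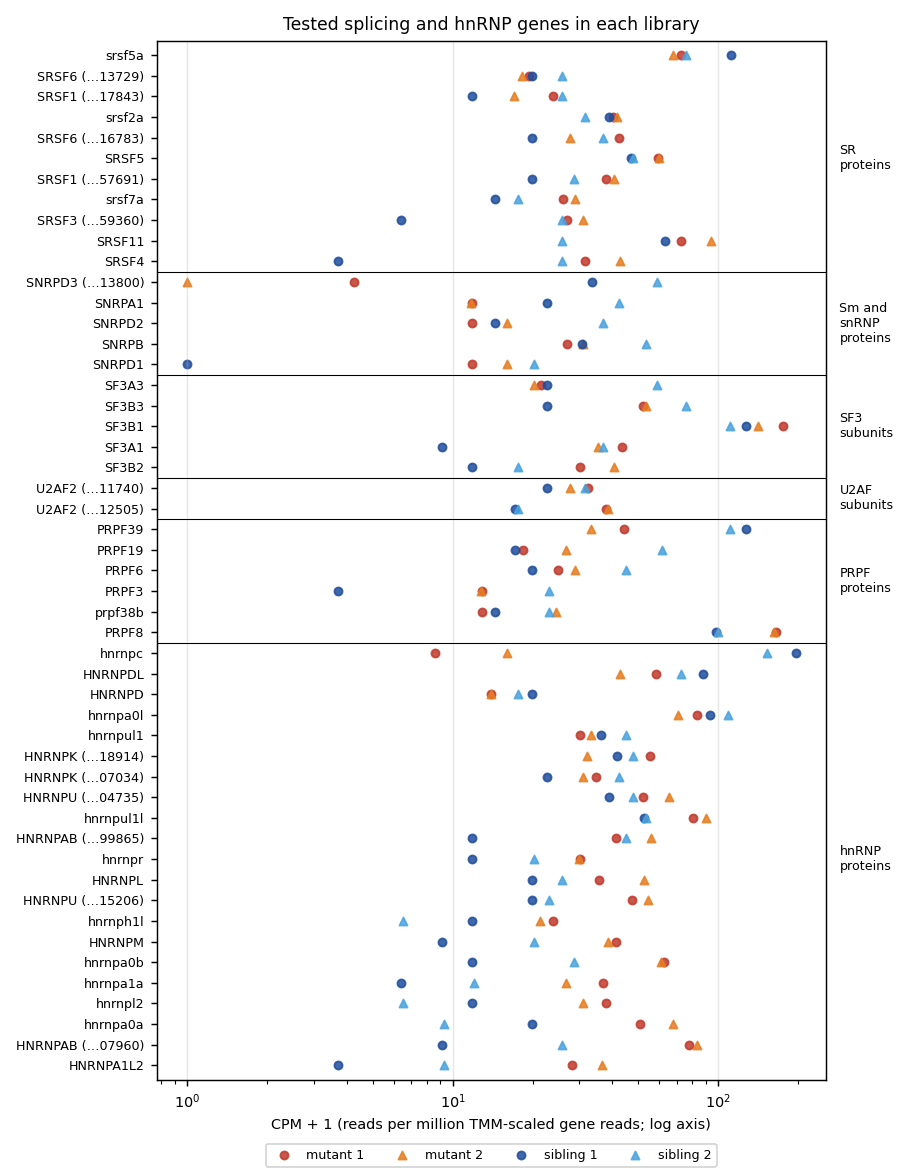
CPM + 1 (log axis) of the tested splicing and hnRNP genes (all but 1 of the 51) in each library; red and orange are the mutant libraries and blue the sibling libraries. Mutant replicates lie close together for most genes, sibling replicates spread more, and hnrnpc, PRPF39, SNRPA1 and SNRPD3 (ENSDARG00000013800) are the called genes with both siblings to the right, of which SNRPA1 and PRPF39 turn direction with ribosomal protein scaling.

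Some genes that did not pass with all 4 libraries passed once a sibling library was left out, PRPF8 with either 1 left out and the others as listed below. Such a fit takes its spread from the mutant pair alone, so its p-values do not measure the spread between siblings. Over all genes with at least 10 reads in the pair, the chi-square per degree of freedom was 1.31 for mutants and 35.5 for siblings. Without sibling replicate 1, SRSF11 (edgeR adjusted p = 0.00232) and hnrnph1l (0.0326) were higher, and SF3A3 (0.00292), PRPF19 (0.00425) and SNRPD2 (0.0164) were lower. Without sibling replicate 2, the library rich in pancreas reads, SRSF4 (edgeR adjusted p = 0.00108), the HNRNPAB gene ENSDARG00000099865 (0.00389), SF3A1 (0.00407), SNRPD1 (0.00712), SRSF3 (ENSDARG00000059360, 0.00998), SF3B3 (0.0222) and hnrnpr (0.0481) were higher, and HNRNPDL (0.0351) and srsf5a (0.0388) lower. With all 4 libraries the sign of each of these lower genes turned with the scaling, and SF3A3 was at 0.70 with total-count and 1.68 with ribosomal protein scaling, SNRPD2 at 0.74 and 1.72, and HNRNPDL at 0.96 and 1.93. Over the 51 splicing and hnRNP genes with at least 10 reads in the sibling pair, the sibling libraries differed by more than counting noise (chi-square per degree of freedom 1.80). Over the 65 with at least 10 reads in the mutant pair, the value was 0.938 for the mutant libraries.

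When libraries were scaled to the splicing and hnRNP reads themselves, an alternative added after seeing the data, 9 of the 51 were higher and 4 lower (all genes 31.7% and 26.6%). This scaling sets each gene against the rest of its group. The 9 were all among the 11, and SF3B2 (edgeR adjusted p = 0.0504) and U2AF2 (ENSDARG00000012505, edgeR adjusted p = 0.055) dropped out. The 4 lower genes were the same as with TMM.

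The balance within pairs of like-named genes also needs no scaling. For 17 pairs with enough reads (at least 20 each, or 40 together), the share of the pair's reads held by its first gene was compared between libraries. In 11 pairs the mutant and sibling shares did not overlap. Among these, in 4 pairs every mutant library differed from every sibling library by at least 15 percentage points. Like-named pairs outside this group were not compared, so no share over all genes stands beside these counts. In the pair of hnrnpa0a and hnrnpa0l, hnrnpa0a held 37.7% (Wilson 95% interval 29.6% to 46.6%) and 48.8% (40.3% to 57.4%) in mutants. In siblings it held 17.1% (8.53% to 31.3%) and 7.14% (2.46% to 19.0%). Likewise hnrnpa0b held 42.9% and 46.3% of its pair with hnrnpa0l in mutants and 10.5% and 20.4% in siblings. These 2 pairs share hnrnpa0l and are not independent, and the balance between hnrnpa0a and hnrnpa0b themselves overlapped between groups (44.7% and 52.5% against 63.6% and 23.1%).

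Of the HNRNPAB pair, ENSDARG00000007960 held 65.7% and 60.2% in mutants and 42.9% and 36.0% in siblings, where the intervals met (15.8% to 75.0% in sibling replicate 1, from 7 reads). In the SNRPD3 pair, ENSDARG00000013800 held 33.3% and 0.0% in mutants and 63.2% and 95.5% in siblings, with 9 and 4 reads in the mutant pair. No pair can give an exact permutation p below 0.33, and reads of close copies may have been split between them in counting. The U2AF2 pair, with 46.0% and 41.7% against 57.1% and 64.7%, and hnrnpul1 of its pair with hnrnpul1l, with 27.0% and 26.5% against 40.6% and 45.7%, had smaller gaps of 11.1 and 13.6 points.

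**Figure D4:**
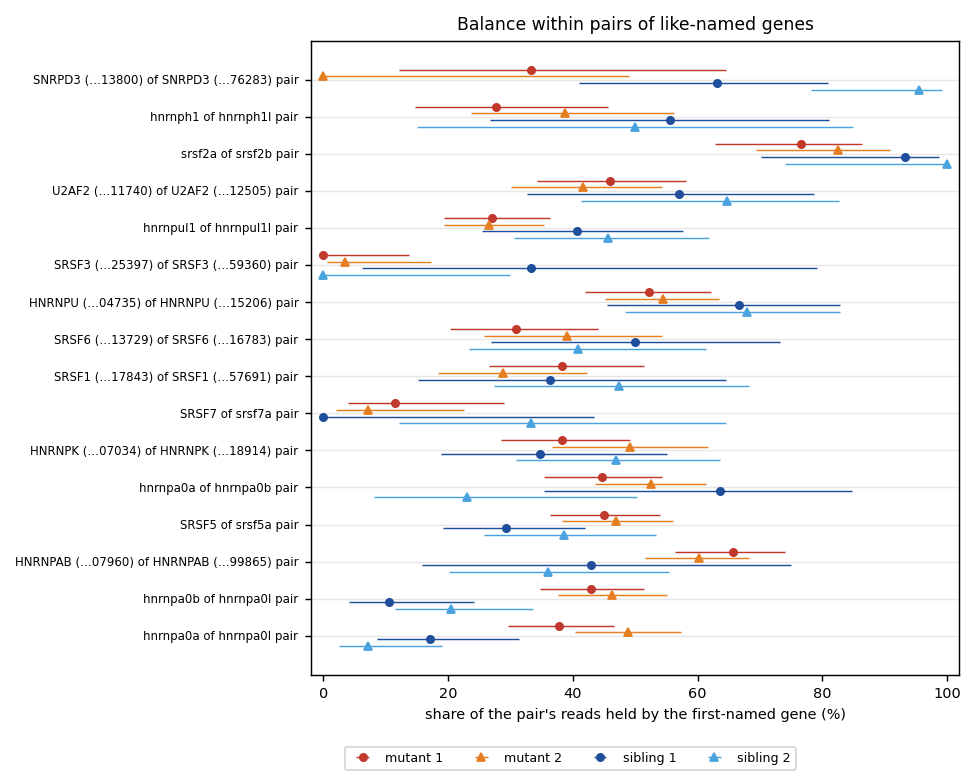
Share of a pair's reads (x axis, %) held by the first-named gene in each of the 4 libraries, for 16 of the 17 pairs (the pair with srsf3a, which has no reads, is left out); bars are Wilson 95% intervals. The pairs of hnrnpa0a and hnrnpa0b with hnrnpa0l lie between 37.7% and 48.8% in mutants and between 7.14% and 20.4% in siblings.

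Other genes of the splicing pathway were read from a wider list of 186 symbols, of which 143 were matched, to 146 genes. Of 90 tested, 26 were higher and 7 lower (28.9% and 7.78%), with a median of 0.51 and 35.2% and 25.9% of all tested genes called. Total-count scaling gave 77 and 0 (85.6% and 0.0%, all genes 67.6% and 12.6%). Ribosomal protein scaling gave 87 and 0 (96.7% and 0.0%, all genes 78.9% and 8.09%). Without mutant replicate 1 or 2 most of the rises were lost, as among all tested genes. The medians were then 0.46 and 0.55 (all genes 0.45 and 0.47). In the remaining core of the U1, U2 and tri-snRNP particles 4 of 17 tested were higher and 2 lower. SNRNP70, which binds the U1 RNA, was read 27 and 29 times in mutants and once in each sibling library, a ratio of pooled CPM of 11.1 (exact 95% counting interval 2.92 to 93.6; edgeR adjusted p = 0.000932). CHERP, which associates with the U2 particle, rose by 1.88 ± 0.54. SNRNP27, of the tri-snRNP, had 7 and 5 reads against 16 and 17 and fell by 2.76 ± 0.47, though with ribosomal protein scaling it was at -0.15 (edgeR adjusted p = 0.775). SMNDC1, another U2-associated protein, fell (-1.39 ± 0.45) with TMM but was at 0.25 and 1.22 with the other scalings.

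Factors of spliceosome activation and catalysis gave 0 higher and 2 lower of 15 tested with edgeR, and 0 in either direction with DESeq2. With edgeR 5 of the 15 had an unadjusted p under 0.05, as had 5255 of all 8133 tested genes. Of all tested genes 35.2% were higher and 25.9% lower. The 2 were IK, a protein of the spliceosome before its activation, and CTNNBL1, a partner of the PRPF19 complex (both -1.33), which were at 0.33 each with total-count scaling and at 1.31 and 1.3 with ribosomal protein scaling. Of the exon junction and SR-related proteins 4 of 10 rose (40%, near the 35.2% of all genes) and 0 fell, with acin1a at 2.03 ± 0.40 (83 and 73 reads against 9 and 6) and srrm1 at 1.41 ± 0.42. Among kinases of SR proteins 2 of 5 rose (40%), DYRK1B by 1.31 ± 0.39 and SRPK3, which is known from muscle. SRPK3 had 10 and 11 against 2 and 0 reads (ratio 4.15, exact 95% counting interval 1.01 to 36.5; edgeR adjusted p = 0.0382). Its call was lost with the replicate block (edgeR adjusted p = 0.202), with scaling to the splicing and hnRNP reads (0.0685) and without sibling replicate 2 (0.344). Of 3 tested snRNP assembly factors PRMT5, which methylates Sm proteins, rose by 1.41 ± 0.57 (edgeR adjusted p = 0.0458), a call lost with the replicate block (0.0754), with scaling to the splicing and hnRNP reads (0.0656) and without sibling replicate 1 (0.188). STRAP fell (-1.57 ± 0.46) with TMM but was at 0.08 and 1.06 with the other scalings.

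Splicing regulators outside the prefix rule gave 15 higher and 2 lower of 40 tested (37.5% and 5.00%, near and below the 35.2% and 25.9% of all tested genes). The neuronal regulator NOVA1 (ENSDARG00000017673) gave 180 and 146 mutant reads against 5 and 1 sibling reads and rose by 4.39 ± 0.52 (edgeR adjusted p = 1.16e-05). RBFOX1, active in nerve and muscle, had 40 and 58 reads against 1 and 0 (ratio 38.7, exact 95% counting interval 6.79 to 1540; edgeR adjusted p = 0.000103). Beside these values, neuron markers had 517 and 485 mutant reads against 0 and 1 sibling reads, and their part in the result was not tested. The 2 lower genes were the general RNA-binding protein gene YBX1 (-1.53 ± 0.33) and the cold-inducible cirbpb (-1.13 ± 0.30), both of which turned to positive values with total-count (0.14 and 0.50) and ribosomal protein scaling (1.12 and 1.48). The wider genes named as higher all had fewer than 10 reads in each sibling library and passed the count filter through their mutant reads alone. SNRNP27 passed it through its sibling reads alone. The counts of the wider list are therefore a description of the genes that passed. Of the wider genes named, DESeq2 called SNRNP70, SNRNP27, acin1a, NOVA1, RBFOX1, YBX1 and cirbpb and none of the rest (DESeq2 adjusted p between 0.0783 and 0.27). Without mutant replicate 1 or 2, NOVA1 kept its call in both fits (edgeR adjusted p of 0.0444 and 0.0436), SNRNP27 and RBFOX1 kept theirs only in the first, and the rest lost theirs in both. Proliferation markers, at 0.0795% and 0.0952% of gene reads for mutants against 0.0147% and 0.0335% for siblings, gave 1 higher and 1 lower of 11 tested.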

How the data were processed

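Gene values are raw read counts per Ensembl gene that the authors deposited, 1 column per library, per the file headers. Per the submitters' processing notes, which give no versions, the build was GRCz10 and the tools TopHat2, HTSeq and DESeq2. How strand and multiply matching reads were handled is not given in the sources used here, and counts of close paralogs and of overlapping genes are therefore uncertain. Libraries used 1000 ng of RNA and 75 bp single-end reads, per the labels' protocols. Repeat counts were not used here. Genomic positions and sequences were not analysed here.

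Counts were tested with edgeR 4.0.16 (R 4.3.3, robust quasi-likelihood fit, group as the only term) after filterByExpr with its default minimum count of 10, and TMM scaling (factors 1.78 and 1.83 for mutants, 0.63 and 0.485 for siblings). Standard errors are the fold change divided by the square root of F. A count of 3 equals 3.25 and 3.22 CPM in mutants and 8.11 and 8.28 in siblings. Every alternative kept the same 8133 genes except that with no filter. Pairs are members whose symbols differ in a final a, b or l, and also, beyond that rule, genes that share a symbol. The alternatives were RLE, total-count and ribosomal protein scaling (96 genes), scaling to the members, no filter, DESeq2 1.42.0, a replicate block and leaving out each library. Members and lists were chosen with earlier results of these data known. Named genes are the 3 of each class with the highest mean CPM, up to 3 called in each direction, the members of pairs whose shares differed by at least 15 points, and up to 2 per direction of each wider list; other names account for the remaining members. Over genes with at least 10 reads in the pair, replicates differed by more than counting noise over all genes (chi-square per degree of freedom 1.31 for mutants and 35.5 for siblings). Over the members the values were 0.938 and 1.80. The values of 1 called member are not reported here, though the counts include it.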

Additional observations from a re-analysis of the deposited data

How the results depend on the processing

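Counts are given as higher, then lower, in mutants. With total-count scaling they were 5497 and 1022 of all tested genes, 44 and 2 of the splicing and hnRNP genes, 11 SR genes higher, 2 and 1 Sm genes, 4 SF3 and 2 U2AF genes higher, 5 and 0 PRPF genes, 20 hnRNP genes higher, and 77 and 0 of the wider list. With ribosomal protein scaling they were 6417 and 658 of all genes, 49 and 2 splicing and hnRNP genes, 11 SR, 4 and 1 Sm, 5 SF3, 2 U2AF, 7 and 0 PRPF, 20 hnRNP and 87 and 0 wider genes. These 2 settings shift all fold changes by construction. With DESeq2 1706 of all genes and 4 splicing and hnRNP genes were higher, 4 of them hnRNP, and 0 SF3, U2AF and PRPF genes, 1 Sm gene was lower, and 11 and 3 wider genes were called. Without the count filter 23859 genes were tested, of which 1540 (6.45%) were higher and 1462 (6.13%) lower. Of 75 splicing and hnRNP genes then tested, 8 (10.7%) were higher and 2 (2.67%) lower. Their share of rises thus lay above that of all genes, whereas with the filter it lay below (21.6% against 35.2%). By class, 5 hnRNP (20.8%), 2 PRPF (18.2%) and 0 SF3 genes were higher and 0 Sm genes lower. In the wider list 18 (12.3%) were higher and 1 (0.685%) lower. RLE scaling gave 2 higher PRPF genes, and scaling to the group's own reads, added after seeing the data, 0 higher SF3 and U2AF genes; the cause was not tested. With hepatocyte and pancreas markers taken out, the sibling shares were 0.152% and 0.162%.

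Leaving out 1 library, where a lone library is assumed to vary like the other group, gave 297 to 2792 and 936 to 2177 of all genes, 0 to 18 and 1 to 7 splicing and hnRNP genes, 0 to 2 and 0 to 1 SR, 0 to 1 and 0 to 3 Sm, 0 to 3 and 0 to 1 SF3, 0 to 1 higher U2AF, 0 to 2 and 0 to 2 PRPF, 0 to 10 and 1 to 2 hnRNP, and 2 to 32 and 0 to 10 wider genes. Of the genes named by rule, the sign turned for srsf5a (1.19 with total-count, 2.16 with ribosomal protein scaling), SNRPB (1.12, 2.11), SNRPA1 (0.13, 1.11), PRPF19 (0.87, 1.86), hnrnpa0l (1.26, 2.24), SMNDC1 (0.25, 1.22), IK (0.33, 1.31), CTNNBL1 (0.33, 1.3), YBX1 (0.14, 1.12), cirbpb (0.50, 1.48) and STRAP (0.08, 1.06), and for PRPF39 with ribosomal protein scaling (0.96). It also turned between the fits without sibling replicate 1 and those without sibling replicate 2 for SF3B3 (-0.51 and 1.24), U2AF2 ENSDARG00000011740 (-0.04 and 0.41) and PRPF19 (-1.47 and 0.39).

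The labels tie libraries across the groups only by replicate number. Deviations of same-numbered libraries correlated at r = 0.0383 over 8133 genes. With n = 2 per group this value cannot show whether same-numbered libraries shared a clutch or batch. The replicate block gave 12 higher and 4 lower splicing and hnRNP genes, among them all 11 and 4 called without it, and 1 higher SR gene, SRSF4. In the wider list it ended the calls of SRPK3 and PRMT5 and of no other gene named. Depth limits the group most in the 25 untested genes, with at most 13 reads in a library.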
